A study of Mus musculus with 4 samples.

Results

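Genes of the astrocyte membrane contacts and of the perivascular endfoot were followed through the loss of MEK1 in the late embryonic mouse cortex. The 8 genes were the connexins Gja1, Gjb6 and Gjb2, the adhesion pair Hepacam and Mlc1, and the endfoot transport genes Aqp4, Slc4a4 and Kcnj10. They were chosen by name, with earlier results of these data known, from 19938 genes with a feature of their own on the array. Each of the 8 had exactly 1 such feature. Of these, 5 passed a filter on dim genes that kept 13956 genes for the test, and 3 (Gjb6, Gjb2 and Aqp4) lay below it.

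Dorsal cortex from mouse embryos at E18.5 (age in embryonic days) was measured on 4 single-colour whole-transcript arrays, 2 per group, untreated and taken straight from the animals. The control group had the genotype Mek1fl/wt with Mek2-/-, that is a floxed Mek1 allele beside a wild-type one, and no Mek2. The mutant group was Mek1fl/fl and Mek2-/- with NestinCre, a Cre recombinase driven by Nestin sequences in neural progenitors and inherited by the neurons and macroglia they form. Cells of other origin, such as endothelium, microglia and meninges, are largely outside the reach of that driver. Both groups therefore lack Mek2, although the design text of the series speaks of wild-type controls, and no array of Cre alone was analysed here. The labels name no litter, batch or day. Values are log2 expression after RMA (background correction, quantile normalization and summary of probes), as deposited.

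Astrocytes are coupled to each other by gap junctions, channels built from connexin proteins, of which connexin 43 (Gja1) and connexin 30 (Gjb6) are the astrocyte forms. Their endfeet wrap the blood vessels of the brain. There, GlialCAM (Hepacam) and MLC1 form an adhesion complex at the contacts between processes, and the water channel AQP4, the potassium channel Kir4.1 (Kcnj10) and the sodium bicarbonate cotransporter NBCe1 (Slc4a4) handle water and ions. Radial glia, the neural stem cells from which cortical astrocytes arise, carry several of these proteins before astrocytes mature, Gja1 above all.

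RefSeq promoter windows (GRCm38.p6) were found for 7 of the 8 genes, and 3 are shown because the results turn on these genes: Hepacam passed the test, Mlc1 differed by a like amount, and Gja1 separated the 2 mutant arrays. Each runs 5′ to 3′ on the strand of the gene, from 250 bases before its start to 50 after it. The Gja1 window is chr10:56377050-56377349 on the plus strand, the Hepacam window chr9:37367356-37367655 on the plus strand, and the Mlc1 window chr15:88978504-88978803 on the minus strand. Capitals mark matches to any of 5 motifs searched on both strands: an ETS core (CGGAAG), the AP-1 site (TGANTCA), a SOX core (ACAAAG), a STAT site (TTCNNNGAA) and the NFI half-site (TTGGCA).
Gja1 promoter: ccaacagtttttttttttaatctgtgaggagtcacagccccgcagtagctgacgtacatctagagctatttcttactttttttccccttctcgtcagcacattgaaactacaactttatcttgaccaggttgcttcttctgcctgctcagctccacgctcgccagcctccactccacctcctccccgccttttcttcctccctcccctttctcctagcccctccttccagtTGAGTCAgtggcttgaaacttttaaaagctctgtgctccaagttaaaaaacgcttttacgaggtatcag
Hepacam promoter: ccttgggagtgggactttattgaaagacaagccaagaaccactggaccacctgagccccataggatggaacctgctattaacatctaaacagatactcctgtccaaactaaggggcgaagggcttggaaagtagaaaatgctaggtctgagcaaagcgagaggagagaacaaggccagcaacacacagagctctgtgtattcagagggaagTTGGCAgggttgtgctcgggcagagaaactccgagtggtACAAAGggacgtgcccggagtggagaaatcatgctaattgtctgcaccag
Mlc1 promoter: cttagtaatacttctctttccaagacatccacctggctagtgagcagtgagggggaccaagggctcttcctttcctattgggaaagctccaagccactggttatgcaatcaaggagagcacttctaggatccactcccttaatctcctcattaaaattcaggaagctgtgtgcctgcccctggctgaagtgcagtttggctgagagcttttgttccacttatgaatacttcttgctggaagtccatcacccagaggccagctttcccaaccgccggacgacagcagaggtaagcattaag

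The Gja1 window held 1 AP-1 match, which begins at base 232 and is found in 7.81% of all 32851 RefSeq windows of this length. The Hepacam window held an NFI half-site beginning at base 212, a motif found in 14.1% of windows, and a SOX match beginning at base 251, a motif found in 18.7%. The window of Kcnj10 had a SOX match at base 251 as well. No motif overlapped another, and the windows of Mlc1, Gjb6, Gjb2 and Slc4a4 (2 windows) held none of the 5. The ETS core, present in 16.9% of windows, and the STAT site (8.30%) were in none of the members' windows. A match or its absence describes these letters only.

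The arrays were alike in scale, with medians between 7.11 and 7.13 on the log2 scale, and the neuronal gene Neurod6 of the dorsal cortex was at 12.04 in controls and 12.08 in mutants. The targeted Mek1 (Map2k1) read 8.76 and 8.84 in controls and 8.50 and 8.73 in mutants (limma, adjusted p = 0.469), and Mek2 (Map2k2), deleted in both groups per the labels, read between 8.47 and 8.64 on the 4 arrays. Features that span a whole transcript do not check the deletion of a part of it, and the place of the deleted parts was not given in the sources used here. Xist and the Y-linked genes showed 1 female and 1 male sample in each group (control 1 and mutant 2 female), so the samples of a group are different embryos. Mutant 1 stood further from the control mean than mutant 2, at a root mean square of 0.213 against 0.169 over the genes tested. In the limma fit over these genes 141 were lower (1.01%) and 2 higher (0.0143%) in the mutants at an adjusted p under 0.05.

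Both genes of the adhesion complex were lower in the mutants by more than 1 on the log2 scale. Hepacam fell 2.23-fold and was the only member past the threshold, where 1.01% of all genes tested were called lower and 0.0143% higher. Its feature read 7.73 and 7.74 in the controls and 6.49 and 6.67 in the mutants. The controls were nearly equal, both mutants lay more than 1 below them, and the difference was -1.16 ± 0.08 (SE; limma, adjusted p = 0.0137). In whole tissue, fewer glial cells and less RNA per glial cell cannot be told apart. By p Hepacam was number 15 of the 13956 genes, and by size number 23 among the decreases. Mlc1, the membrane protein that GlialCAM holds at the contacts between astrocytes, read 9.94 and 10.02 in controls and 8.69 and 9.14 in mutants. Both mutants were again below both controls, mutant 1 further than mutant 2. The difference of -1.07 ± 0.15 (SE) had a 95% interval from -1.44 to -0.69 and just missed the threshold (limma, adjusted p = 0.0550).

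Both genes were lower in each mutant array, whereas the calls moved with the fit. Hepacam lay 1.25 below the control mean in mutant 1 and 1.07 below it in mutant 2, and Mlc1 lay 1.29 and 0.84 below. Without control 1 or without control 2, Hepacam had an adjusted p of 0.102 and 0.0945 in limma, with differences of -1.16 and -1.15. Leaving out a control takes the spread from the mutant pair alone. Mlc1 was called in limma with the labels' replicate number as a block (adjusted p = 0.0488) and with a trended prior (adjusted p = 0.0210). It was also called under a stricter filter on dim genes (adjusted p = 0.0392). Mlc1 was not called in limma with no filter on dim genes (adjusted p = 0.125) or with embryo sex as a covariate (0.0772). Nor was it called after further quantile normalization (0.0507) or with every feature tested (0.352). Without mutant 1 the Mlc1 difference was -0.84 and without mutant 2 it was -1.29, each resting on a lone mutant array.

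**Figure D1:**
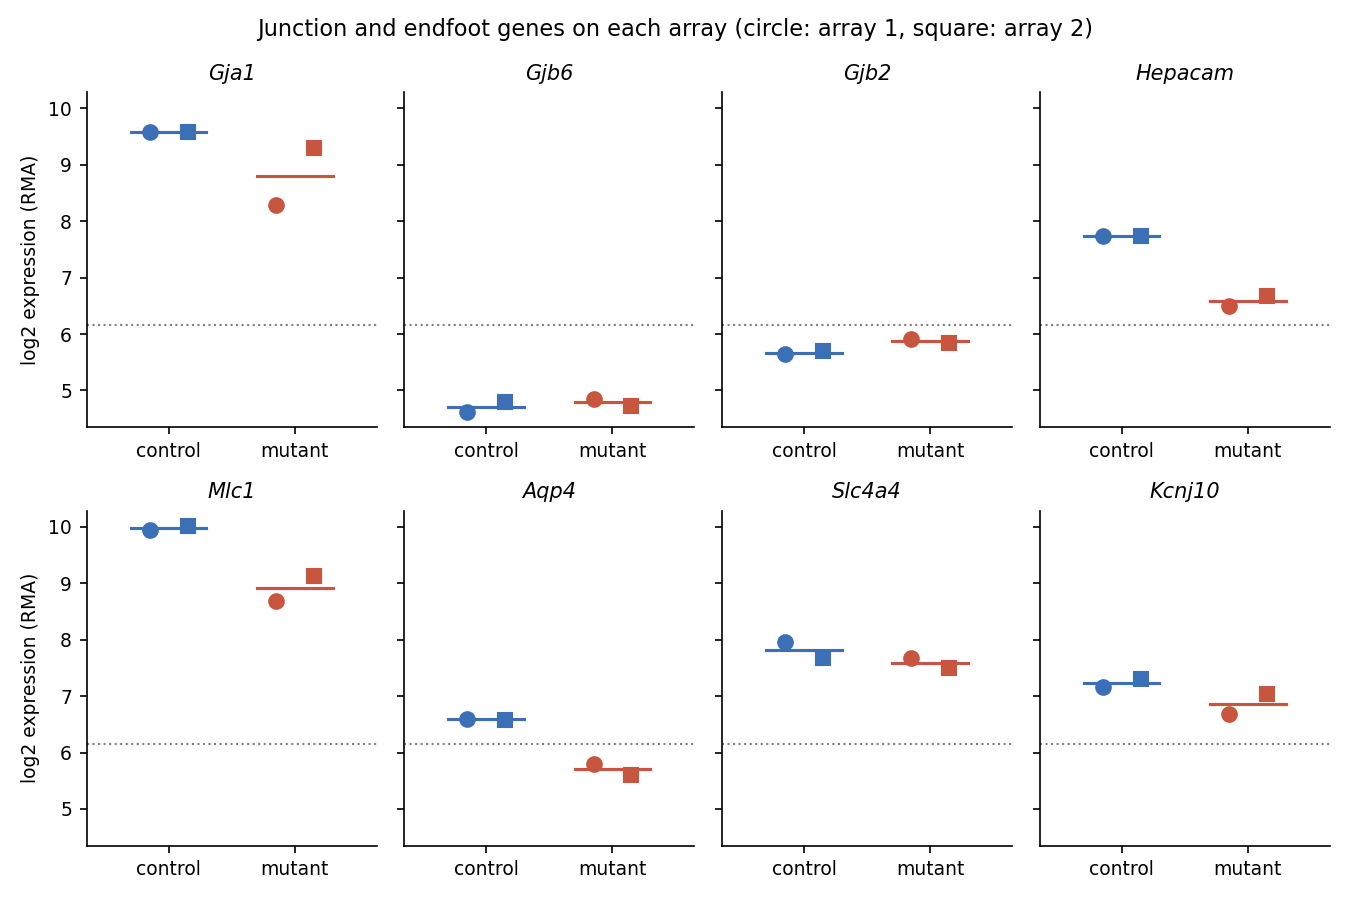
Log2 expression (RMA) of the 8 genes on each array, 1 panel per gene, with controls in blue and mutants in red. Circles are array 1 and squares array 2 of a group, horizontal bars are group means of 2 arrays, and the dotted line marks the filter on dim genes (6.16). Hepacam and Mlc1 are lower in both mutants, Gja1 is far lower in mutant 1 (8.29) than in mutant 2 (9.30), and Gjb6 and Gjb2 lie under the line on every array.

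Gja1, the main gap junction protein of radial glia and astrocytes, was lower in both mutants but by very different amounts. Its log2 level was 9.57 and 9.59 in the controls, 8.29 in mutant 1 and 9.30 in mutant 2. The groups did not overlap. Mutant 2 lay only 0.28 below the control mean, whereas mutant 1 lay 1.29 below it. The mean difference was -0.78 ± 0.32 (SE), its 95% interval ran from -1.58 to 0.02, and it did not pass (limma, adjusted p = 0.382). Without mutant 2 the difference was -1.29 and without mutant 1 it was -0.28, each resting on a lone mutant array.

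The gap of 1.02 between the 2 mutants in Gja1 was exceeded by 25 of the genes tested, or 0.179%. Of these, 4 were Xist and the Y-linked Eif2s3y, Uty and Kdm5d, since the 2 mutants differ in sex. Gja1 itself differed by 0.015 between the female and the male control, 1 array each, and the part of sex in its gap was not tested. Of the other 21 genes, 20 were lower in mutant 1 than in mutant 2, and 19 of the 21 were lower in mutant 1 than in both controls. Among them, named after their values were seen, were the transcription factors Nr2f2 (9.15 in mutant 1 against 10.69 in mutant 2) and Lhx9 (6.40 against 7.86), the calcium-binding protein Calb1 (7.66 against 8.95), the interneuron peptide Sst (9.91 against 11.20) and Dcn, a matrix proteoglycan of the meninges (6.70 against 7.84). Mutant 1 stood apart from the other 3 arrays in a set of genes that are not members. The part this plays in the Gja1 value was not tested.

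The other connexins of the astrocyte were dim and were not lower. Gjb6, connexin 30, which pairs with connexin 43 in mature astrocytes, read 4.62 and 4.80 in controls and 4.85 and 4.72 in mutants, and the groups overlapped. Gjb2, connexin 26, known from the meninges as well as from astrocytes, read 5.65 and 5.70 in controls and 5.92 and 5.84 in mutants. Both mutants were above both controls, by 0.21 on average. No detection flag was used, and differences in this dim range are compressed towards 0 by the background. With no filter, in which all 8 members were tested, neither passed (limma, adjusted p = 0.836 for Gjb6 and 0.403 for Gjb2). In the RefSeq gene table no protein-coding gene lies between Gjb2 and Gjb6. At E18.5 both features lay in the dim range on all 4 arrays, so for these genes the name astrocyte connexin rests on their known role only.

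Aqp4, the water channel of the endfoot, was lower in both mutants but lay close to the filter on dim genes. It read 6.60 and 6.58 in controls and 5.81 and 5.60 in mutants. A gap of 0.78 separated the groups, and here mutant 2 was the lower of the pair. The difference was -0.89, or 1.85-fold lower. Its mean over the 4 arrays (6.15) lay just below the filter (6.16), so it was not in the main test. With no filter it had an adjusted p of 0.0713 in limma, in a fit that called 15 genes lower among 19938 (0.0752%), Hepacam among them (adjusted p = 0.0449). The mutant values lie in the dim range, where folds are compressed.

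The 2 other transport genes differed by less. Kcnj10, the potassium channel Kir4.1, read 7.17 and 7.31 in controls and 6.69 and 7.03 in mutants. No overlap was seen between groups, but mutant 2 was only 0.20 below the control mean and mutant 1 was 0.55 below it. The difference of -0.38 ± 0.13 (SE) did not pass (limma, adjusted p = 0.308). Without mutant 2, which leaves mutant 1 as the lone mutant array, the Kcnj10 difference was -0.55. Slc4a4, the sodium bicarbonate cotransporter, read 7.96 and 7.68 in controls and 7.68 and 7.49 in mutants. Control 2 and mutant 1 were equal to within 0.01, so the groups overlapped, and the difference of -0.23 ± 0.12 (SE) had an interval from -0.53 to 0.07 (limma, adjusted p = 0.483). That interval includes 0 but not a decrease of the size seen in Hepacam.

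Over all 8 members, both mutants lay below both controls in 5 (Gja1, Hepacam, Mlc1, Aqp4 and Kcnj10), above both in 1 (Gjb2), and the groups overlapped in 2 (Gjb6 and Slc4a4). Of the 5 members tested, 4 had both mutants below and 0 had both above. Among all genes tested the shares were 21.4% and 22.8%. The median difference of the 8 members was -0.58, against 0.0104 over all 19938 genes measured. For the 5 members tested it was -0.78, against 0.0053 over all genes tested. The members were chosen with earlier results of these data known, so these shares and medians are descriptions and no independent support. With 2 arrays against 2, an exact permutation test of a single gene cannot go below p = 0.333 (two-sided), so only the fit over all genes could pass a threshold.

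**Figure D2:**
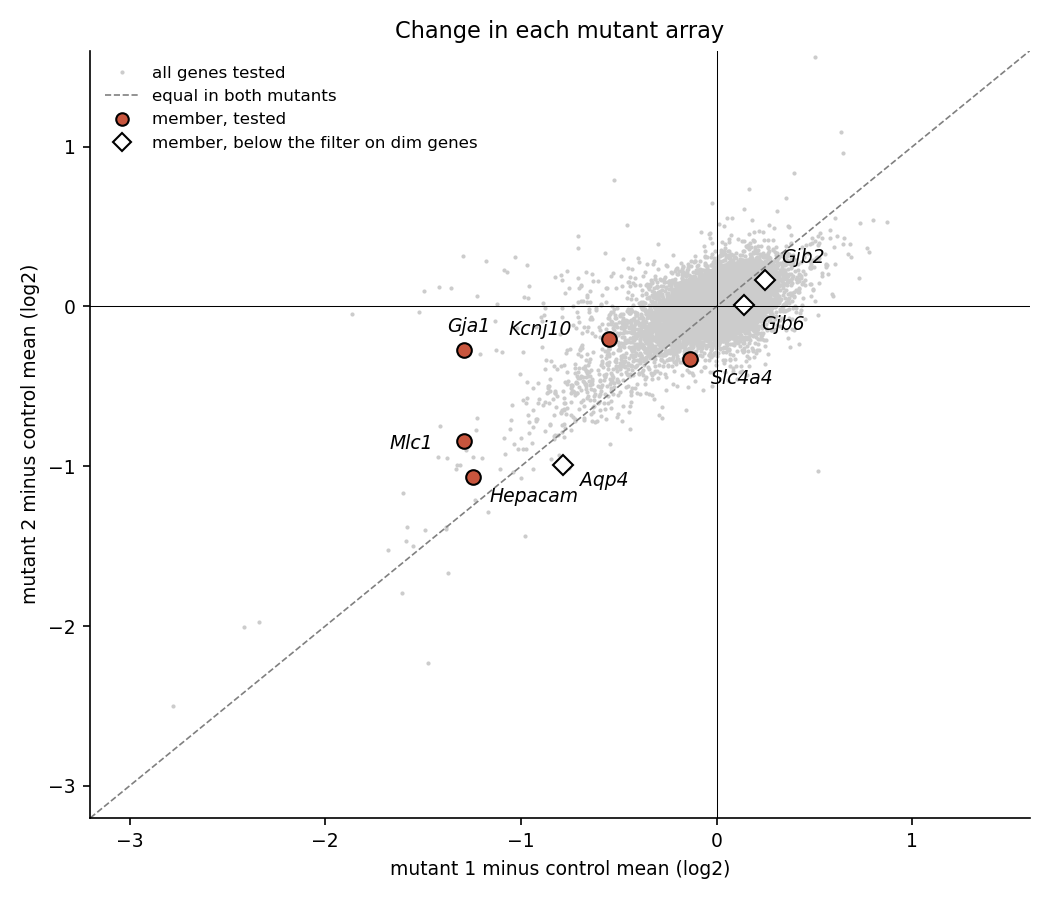
Each point is a gene, placed by its value in mutant 1 (horizontal) and in mutant 2 (vertical) minus the control mean, both in log2 units. Grey points are the 13956 genes tested, filled circles the 5 members tested, open diamonds the 3 below the filter on dim genes, and the dashed line marks equal change. Hepacam (-1.25 and -1.07) lies near the line, Gja1 (-1.29 and -0.28) and Kcnj10 (-0.55 and -0.20) lie above it, and Aqp4 (-0.78 and -0.99) lies below it. Xist, Eif2s3y, Uty and Kdm5d (4 genes) lie outside the axes.

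The nearest profiles over the 4 arrays, by root mean square distance between values centred on each gene's own mean, were compared over 13955 other genes for the brightest tested member of each role. The nearest to Gja1 were Slc1a2, the glutamate transporter GLT-1 of astrocytes (distance 0.040), and the transcription factors Emx2 (0.073) and Zic2 (0.088), which pattern the developing telencephalon. Only 4 genes lay within 0.1 of Gja1. Slc1a2 read 8.87 in both controls, 7.66 in mutant 1 and 8.57 in mutant 2, and Emx2 and Zic2 were likewise lowest in mutant 1, at 6.70 and 6.99. None of the 3 passed in limma (adjusted p from 0.352 to 0.503).

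The nearest to Mlc1 were Ppp1r3c, a glycogen-targeting subunit of protein phosphatase 1 (distance 0.026), Zcchc24, a zinc finger protein (0.027), and Plpp3, a lipid phosphatase of astrocytes and radial glia (0.042). Ppp1r3c fell 2.13-fold and Zcchc24 fell 2.11-fold (limma, adjusted p = 0.0409 and 0.0427). Neither was called without control 1 (adjusted p = 0.192 and 0.206) or without control 2 (adjusted p = 0.195 for both). They also missed the threshold with no filter on dim genes (0.0980 and 0.101), with embryo sex as a covariate (0.0702 and 0.0638) and after further quantile normalization (0.0532 and 0.0553). Plpp3 was at 10.15 in controls and 9.15 in mutants and did not pass (adjusted p = 0.0643). Around Mlc1, 11 genes lay within 0.1. For Slc4a4 the nearest were Mir708 (0.013), Tmem269 (0.035) and Imp4 (0.036), but 277 genes lay within 0.1 of its nearly flat profile. These genes were ranked on 4 arrays that hold the comparison itself, so likeness describes these arrays only.

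**Figure D3:**
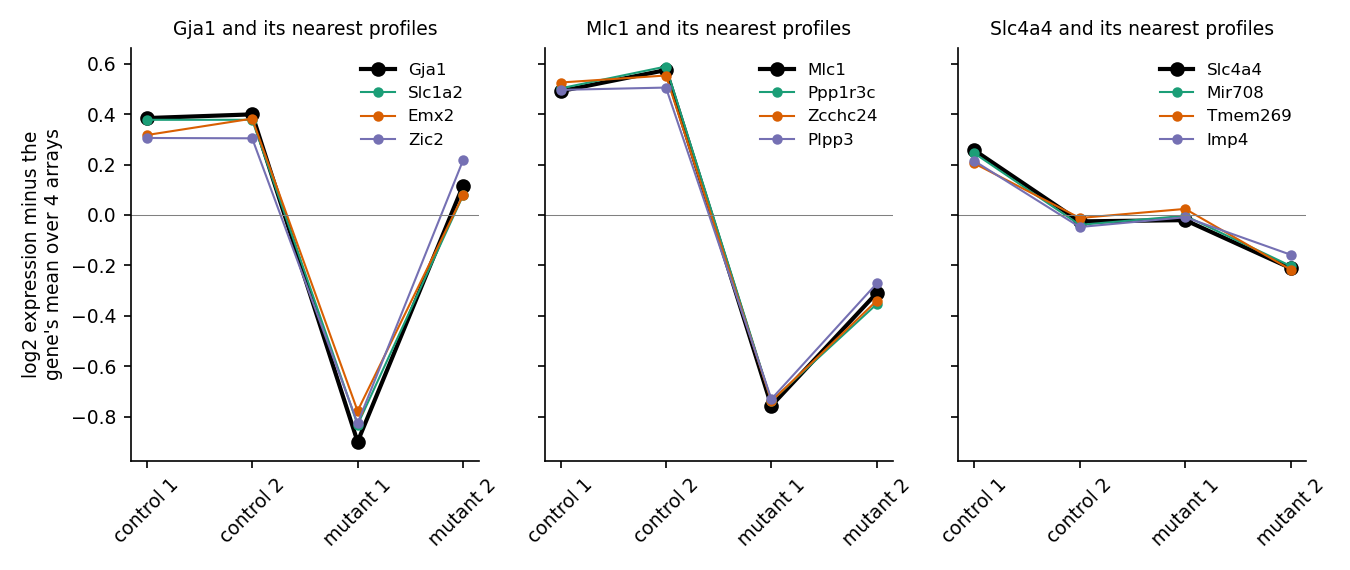
Profiles over the 4 arrays of Gja1, Mlc1 and Slc4a4 (black) and the 3 genes nearest to each (colours), as log2 expression minus the gene's own mean over the arrays; lines join a gene's points only to guide the eye. Gja1 and its neighbours drop mainly in mutant 1, and Mlc1 and its neighbours drop in both mutants.

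None of the 8 genes listed here as partners of Hepacam and Mlc1 passed the test. All 8 were tested, and the median difference was -0.02. Gprc5b, a receptor of that complex, was the closest to the threshold, at 8.06 and 8.14 in controls against 7.69 and 7.74 in mutants (-0.39 ± 0.06 SE; limma, adjusted p = 0.0693). Atp1b1, a sodium pump subunit, differed by 0.20 (adjusted p = 0.366). The chloride channel Clcn2, which GlialCAM brings to the contacts, was at 8.29 ± 0.05 in controls and 8.41 ± 0.03 in mutants (SD, n = 2 each; limma, adjusted p = 0.462). In the fit without mutant 2, which called 5.24% of all genes tested lower and 1.07% higher, Gprc5b and Ocln were called lower (2 of 8). The counts of a few genes given from that fit, also for the other lists, are descriptions only. Gprc5b was called under the stricter filter as well.

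No other connexin or relative of the transport members passed. Of 20 other connexins and pannexins, 16 were measured and 8 tested. None passed, and the median of the tested genes was 0.08. The smallest p belonged to the pannexin Panx2 (0.14, adjusted p = 0.408 in limma) and the connexin Gjd3 (0.08, adjusted p = 0.629). Gjd2, the neuronal connexin 36, had the lowest difference of the list (-0.26) and, like Gja1, was lowest in mutant 1, at 7.65 against 8.31 in mutant 2, and it was the 1 gene of the list called without mutant 2. Of 28 relatives of the members in the aquaporin, bicarbonate transporter, inward rectifier and Hepacam families, 17 were tested, none passed and the median was 0.04. Their smallest p belonged to Kcnj8 (0.23, adjusted p = 0.434 in limma), a pericyte channel, and Slc4a3 (0.11, adjusted p = 0.505), an anion exchanger.

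The scaffold that anchors AQP4 at the endfoot showed no call. Of 21 genes of the dystrophin complex and its basal lamina ligands, 20 were tested, with a median of -0.0069. Dtna, alpha-dystrobrevin of astrocyte endfeet, read 8.76 and 8.88 in controls and 8.31 and 8.49 in mutants. Both mutants were lower, but the difference of -0.42 ± 0.09 (SE) did not pass (limma, adjusted p = 0.133). Utrn, utrophin, differed by -0.15 (adjusted p = 0.419). Dystroglycan (Dag1), the receptor at the core of the complex, was at 9.23 and 9.21 in the 2 groups. Without mutant 2, Dtna and Lamb2, a laminin chain, were called lower (2 of 20, in a fit that called 5.24% of all genes lower).

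Among 25 genes of adherens and tight junctions, 23 were tested and 1 fell, where 1.01% of all genes tested were called lower. Jam2, a junctional adhesion molecule of endothelium and glia that is known to bind at contacts between cells, fell 1.74-fold, from 8.50 ± 0.02 to 7.71 ± 0.08 (SD, n = 2 each; limma, adjusted p = 0.0210). It was not called without control 1 (adjusted p = 0.153), without control 2 (0.145), with no filter on dim genes (0.0660) or with embryo sex as a covariate (0.0540). A trended prior called Ctnna1 as well, in a fit that called 1.55% of all genes tested lower. The median of the list was -0.05. Cdh2, N-cadherin of the ventricular surface, was at 11.55 in controls and 11.68 in mutants (adjusted p = 0.427). Of 18 other transport genes known from astrocytes, 12 were tested, none passed, and the median was -0.08. Slc6a11, the GABA transporter GAT-3, differed by -0.33 (limma, adjusted p = 0.218) and Slc8a1, a sodium calcium exchanger, by 0.25 (adjusted p = 0.308). Without mutant 2, which leaves mutant 1 as the lone mutant array, the differences were -0.44 for Atp1b2, -0.54 for Kcnk1, -0.44 for Slc6a11 and 0.34 for Slc8a1.

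Marker lists for the cells of the sample were read beside the members. In the main fit 1.01% of all genes tested were called lower. Of 14 astrocyte markers, 13 were tested, 5 fell and none rose, and the median of all 14 was -0.57. Of 12 radial glia markers 4 fell, with a median of -0.44; Slc1a3 stands on both lists. The summed linear level of the astrocyte markers was between 18167 and 18683 in controls and between 11482 and 12561 in mutants. Of 7 measured markers of dividing cells 5 fell (median -0.95). The 6 markers of oligodendrocyte precursors had a median of -1.40 and the 9 of microglia a median of -0.25. Calls are not counted in these lists, because Pdgfra, Olig2, Gpr17 and the microglial Fcrls had mutant means under the filter level and entered the test through the controls alone. Olig1, above that level on every array, was at 8.36 and 8.87 in the control pair and at 6.28 and 6.64 in the mutant pair. The counts for astrocytes, radial glia and dividing cells moved with the fit. They were 4, 3 and 0 in limma with no filter on dim genes, where 0.0752% of genes were called lower, and 4, 3 and 2 with embryo sex as a covariate (0.122% of genes). Without control 1 or without control 2 they were 4, 2 and 0 (0.0645% of genes), and without mutant 2 they were 10, 10 and 6 (5.24% of genes). With a trended prior (1.55% of genes) 9 astrocyte markers were called. The part of these lists in the members' values was not tested. Gfap, the filament of mature astrocytes, was at 7.01 and 7.05, and S100b lay below the filter, at 5.60 and 5.37.

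Markers of the cells that endfeet contact had medians near 0. None of 10 tested endothelial markers passed (median 0.02), and their summed level was between 3784 and 3789 in controls and between 3403 and 4031 in mutants. Likewise none of 6 pericyte markers (median 0.04), 8 meningeal markers (median 0.06), 4 ependymal markers (median 0.07) or 9 neuronal markers (median 0.07) passed; without mutant 2, 1 meningeal marker (Dcn) was called lower. The summed level of the meningeal markers, the other known source of Gjb2, was between 1632 and 1654 in controls and between 1594 and 1779 in mutants, with Aldh1a2, Foxd1, Lum and Slc6a13 below the filter. The choroid plexus marker Ttr read 9.15 in control 2 and between 6.50 and 7.17 on the other arrays. Alas2, the 1 red blood cell marker measured, differed by -0.23 (limma, adjusted p = 0.236).

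**Figure D4:**
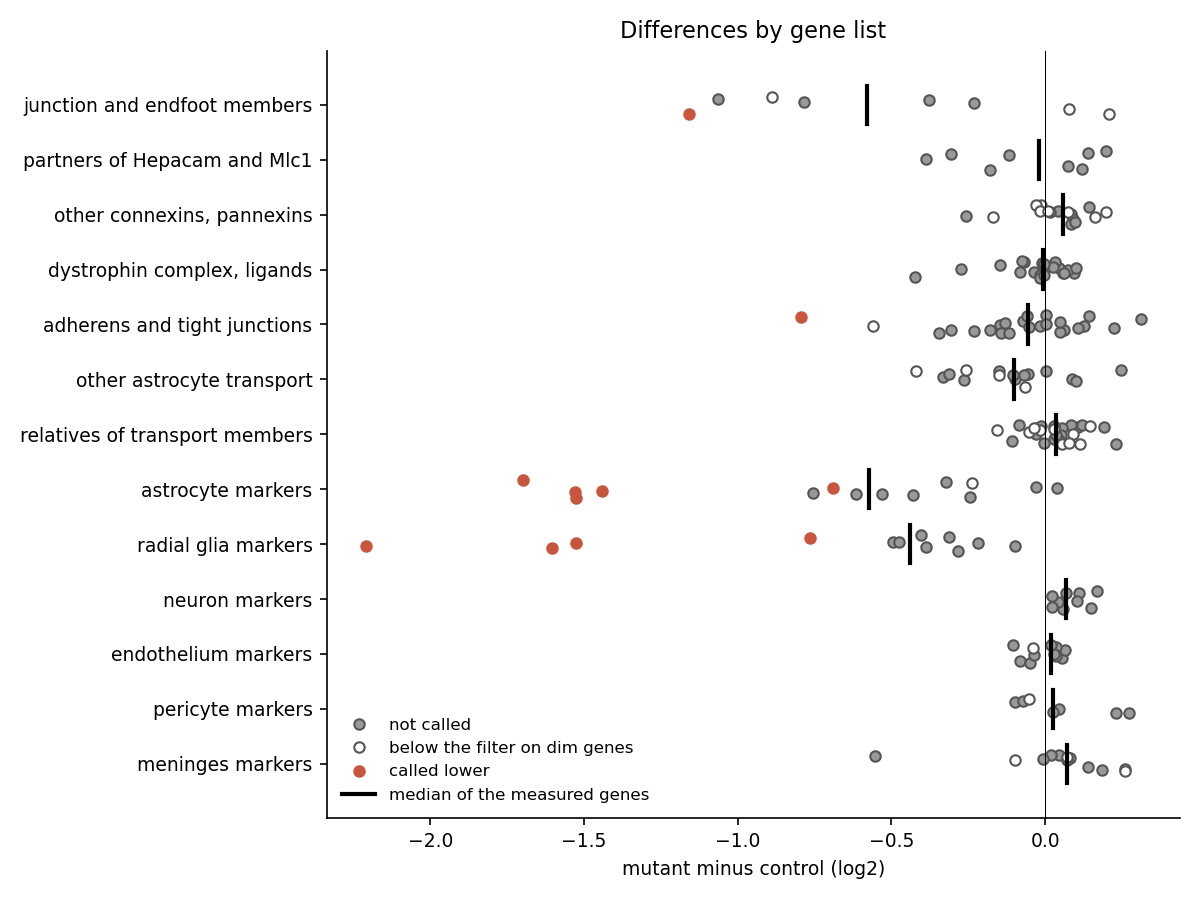
Difference between mutants and controls (log2) for the members and for other junction and transport lists, 1 point per measured gene. Marker lists shown are those of astrocytes, radial glia, neurons, endothelium, pericytes and meninges. Not shown are dividing cells (median of the measured genes -0.95), oligodendrocyte precursors (-1.40), microglia (-0.25), choroid plexus (-0.14), ependyma (0.06) and red blood cells (-0.23). Red points were called lower in limma, grey points were not called, open points lay below the filter on dim genes, and black bars are medians of the measured genes. The members range from -1.16 to 0.21 (median -0.58). Markers of astrocytes and radial glia have medians of -0.57 and -0.44. The lists of other connexins, of the dystrophin complex and of endothelial markers lie near 0.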

How the data were processed

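Biotin-labelled RNA of dorsal cortex (Trizol, column purification, 200 ng a sample) was hybridised, per the labels. The deposited log2 values come from RMA, which the submitters' processing notes name. Its version, software and genome build were not given in the sources used here. Values were taken as log2 from how large they are. RMA hides a shift shared by most genes and compresses differences of dim ones. No detection flags were used, and precision is limited by the small number of arrays.

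Of 35557 features, 21789 had 1 gene symbol in the platform annotation, 1621 had several and 12147 were not listed. Symbols were updated by Entrez identifier for 21698 features (RefSeq, GRCm38.p6), and the brightest feature per gene was kept. Genes under the 30th percentile of the mean (6.16) were left out. Mutants were compared with controls in limma 3.58.1 (R 4.3.3; lmFit, eBayes, no covariate), two-sided, with Benjamini-Hochberg adjustment over all genes tested and a threshold of 0.05. The fit had 2 residual and 3.31 prior degrees of freedom. P-values measure only the spread between these samples.

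The named genes are the 8 members, the called genes of the 6 other lists (or the 2 with the smallest p), Map2k1 and Map2k2, markers and the nearest profiles; genes outside this rule, Dag1, Clcn2, Cdh2, Gjd2, those called only with an array left out and others so marked, were named after their values were seen. The members and all lists were chosen with earlier results of these data known. The labels number the arrays 1 and 2 in both groups; the control and mutant deviations of same-numbered arrays correlated at -0.16, and the numbers were not taken as pairs. Alternatives covered the filter, features, normalization, variance prior, replicate number, embryo sex and each array left out.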

Additional observations from a re-analysis of the deposited data

How the results depend on the processing

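Over 14 alternatives the Hepacam difference stayed between -1.25 and -1.07, and over 15 the Mlc1 difference stayed between -1.29 and -0.84. Most of these could not move a difference, since each member has 1 feature and the groups are of equal size. The filter, feature, prior, replicate-number and sex settings leave it as it is. Only centring the arrays, further quantile normalization and leaving out an array could move it. No tested member changed direction in those fits. The number of members called was 1 in the main fit, 0 in a test of all features on the array (Hepacam adjusted p = 0.258), and 2 with a trended prior or with the replicate block (Hepacam and Mlc1). With 1 array left out it ran from 0 to 4: 0 without control 1 and likewise without control 2, then 2 without mutant 1 (Hepacam and Mlc1) and 4 without mutant 2 (Gja1, Hepacam, Kcnj10 and Mlc1), where the lone array of a group was assumed to vary like the other group. The causes were not tested. The median of the 8 members ran from -0.67 to -0.30 over these fits, the latter without mutant 1. Of all genes tested, 141 were called lower in the main fit, 15 with no filter, 0 with every feature, 217 with a trended prior, 17 with embryo sex as a covariate, 9 after control 1 was left out, 9 after control 2, 230 after mutant 1 and 731 after mutant 2. The replicate block called 113 genes lower. Because the numbers correlated negatively, the crossed pairing was added after seeing the data; it is the same fit as embryo sex and called 17 genes, with Hepacam as the 1 member. Hepacam and Kcnj10 had no test under the stricter filter, which left them out as dim. Gjb6 turned from 0.08 to -0.01 without control 1, within the dim range. Signal over background limits Gjb6, Gjb2 and Aqp4, for which no detection flag was used.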
